A study of Mus musculus with 12 samples.

Results

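The genes described here are 82 genes that differed between vesicle and PBS libraries in opposite directions in crushed mouse retina and in cultures labelled brain microvascular pericytes. They were chosen from these measurements: a gene had to reach a mean of 2 CPM (the count scaled to a fixed library total) in the higher group of each table. Its 3 vesicle and 3 PBS values had to lie apart in both tables, and the log2 ratio of mean CPM, vesicles over PBS, had to reach 0.4 in size in both with opposite signs. Of 32198 genes listed in both tables, 11554 reached the mean and 82 met every limit. Of those, 57 were higher in the retina and lower in the cultures, and 25 were lower in the retina and higher in the cultures. Another 416 genes met the same limits with higher values in both tables and 129 with lower values in both. Because the rule used both contrasts, the members' differences are given as descriptions, without tests.

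All 12 libraries came from wild-type mice and fall into 4 groups of 3. The retinas were taken 1 day after optic nerve crush (ONC), a mechanical injury of the nerve that all 6 retina samples carry, with no uninjured group used here. Their groups were ONC with i.o. MSC.sEV, small extracellular vesicles of mesenchymal stem cells (i.o. is not spelled out in the labels), and ONC with PBS, the saline control. The cultures, labelled P4, had 12 hours of MSC.sEV or of PBS and no stated injury. The labels do not say that libraries of 1 group had separate origins, so spreads and p-values measure only the difference between these libraries. Retina columns carry short names that were read as vesicles and PBS by inference. With the opposite reading, the 82 genes would be genes that moved the same way in both tables.

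Library totals lay between 15580024 and 16842926 counts for retina and between 33001248 and 37954077 for cultures. The retina libraries differed in lens mRNAs: the lens marker list took 2.16%, 8.20% and 0.0197% of counts with vesicles, against 0.779%, 0.0897% and 0.0781% with PBS. In the cultures, the list of 20 pericyte and mural cell markers summed to between 798 and 806 CPM with vesicles, against 795 and 841 CPM with PBS. Most of that sum was Acta2, the smooth muscle actin that fibroblasts also make in culture, which averaged 577 CPM with vesicles and 581 CPM with PBS. Of the markers more specific to pericytes in tissue, Higd1b was at 0 in all 6 libraries and the only one of the list at 0. Kcnj8 averaged 0.0771 CPM with vesicles and 0.0808 CPM with PBS, and Rgs5 averaged 0.877 CPM with vesicles and 0.288 CPM with PBS. These were picked from the list and do not stand for all of it. Of its 20 genes, 14 had enough counts for an edgeR test in the cultures. Notch3 was 1 of them, and its levels are given below with the Notch genes. Pdgfrb, a receptor of mural cells and fibroblasts, averaged 69.7 CPM with vesicles and 60.7 CPM with PBS. Markers of other brain cells were present, with Gfap of astrocytes at 197 CPM with vesicles and 218 CPM with PBS and Olig2 of the oligodendrocyte lineage at 51.8 CPM with vesicles and 65.4 CPM with PBS. Of the markers whose values are given in this paragraph, edgeR called Olig2 lower and Pdgfrb higher with vesicles in the cultures. The cultures are called pericyte cultures below as their label has it.

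Several members belong to signalling systems that work between neighbouring cells. Norrin, a secreted ligand, binds the frizzled 4 receptor and drives Wnt-type signalling that blood vessels of the retina need to grow and to keep their barrier. Notch receptors are cut when a neighbour's ligand binds, and fringe enzymes add sugars that set which ligand a receptor answers. In inflamed cells the transcription factor NF-kB turns on cytokine genes together with Tnfaip3, whose protein A20 edits ubiquitin chains and shuts NF-kB signalling off again.

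The sizes of the differences were unequal. In the 57 genes higher in the retina, the retina log2 ratio ran from 0.41 to 3.61 with a median of 1.11, and 30 genes differed at least 2-fold. Their ratio in the pericyte cultures ran from -1.31 to -0.41 with a median of -0.52, and 1 gene, Kcnh1, differed at least 2-fold. In the 25 genes lower in the retina, the retina ratio ran from -0.93 to -0.41 with a median of -0.60 and no gene reached 2-fold. Their ratio in the cultures ran from 0.40 to 2.95 with a median of 0.61, and 5 genes differed at least 2-fold: Tnfaip3, Il15, Cmpk2, Rapgef5 and Trafd1. The larger of a gene's 2 ratios was the retina's in 46 of the 57 and in 12 of the 25. Over all 11554 genes at the CPM minimum the median ratio was -0.02 in the retina and -0.04 in the cultures.

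**Figure D1:**
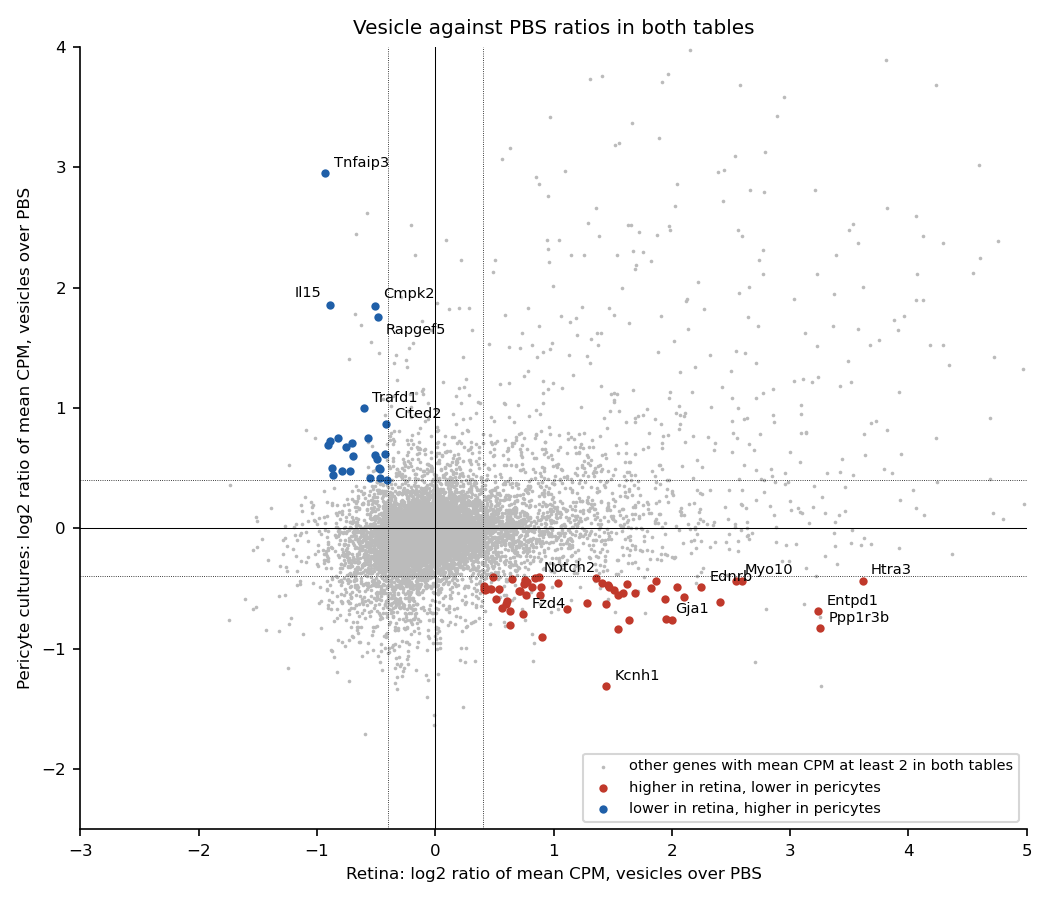
Log2 ratio of mean CPM, vesicles over PBS, in the retina (x axis) and in the pericyte cultures (y axis) for the 11554 genes that reached a mean of 2 CPM in both tables; each point is a gene, red and blue points are the 57 and 25 members, dotted lines mark the 0.4 limit, and 45 other genes lie outside the axes. The red points spread far along the retina axis and little along the culture axis, while Tnfaip3, Il15, Cmpk2 and Rapgef5 do the reverse among the blue points.

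Non-overlap by itself was common. In the retina 34.9% of the 11554 genes had groups that did not overlap, 19.3% higher and 15.6% lower with vesicles. In the pericyte cultures the shares were 39.3%, 15.3% and 24.0%. Opposite non-overlapping differences of any size made up 468 genes, 4.05%, and the full rule left 0.71%. The edgeR quasi-likelihood test with Benjamini-Hochberg adjustment over each whole table called 50 of the 82 genes in the retina, where it called 15.9% of 15440 genes. It called 69 of the 82 in the cultures, where it called 19.8% of 16975 genes, and 44 in both. By direction it called 35 of the 57 higher in the retina (10.7% of all) and 48 of them lower in the cultures (8.9% of all). Of the 25, it called 15 lower in the retina (5.19% of all) and 21 higher in the cultures (10.9% of all). These calls come from the contrasts that chose the genes, so nothing is read from the shares. The retina calls numbered 2449 of all genes, and 1401, 1381 and 1328 without vesicle library 1, vesicle library 2 and PBS library 2. The culture calls split into 1855 higher and 1510 lower, and into 1512 higher and 2050 lower with library totals in place of TMM scaling.

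The choice of limit cut through a continuous range. Just inside it on the retina-higher side stood Tsku, with a culture ratio of -0.41, and Epb41l4b with -0.41. Just outside stood Gpr155, with a retina ratio of 0.40 that rounds up from below the limit, and Lsp1 with a culture ratio of -0.39. On the retina-lower side Pik3ip1 (-0.41 in the retina and 0.40 in the cultures) and Cited2 (-0.41 and 0.87) stood just inside, and Vldlr (-0.49 and 0.39) and Pard6b (-0.38 and 0.50) just outside.

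**Figure D2:**
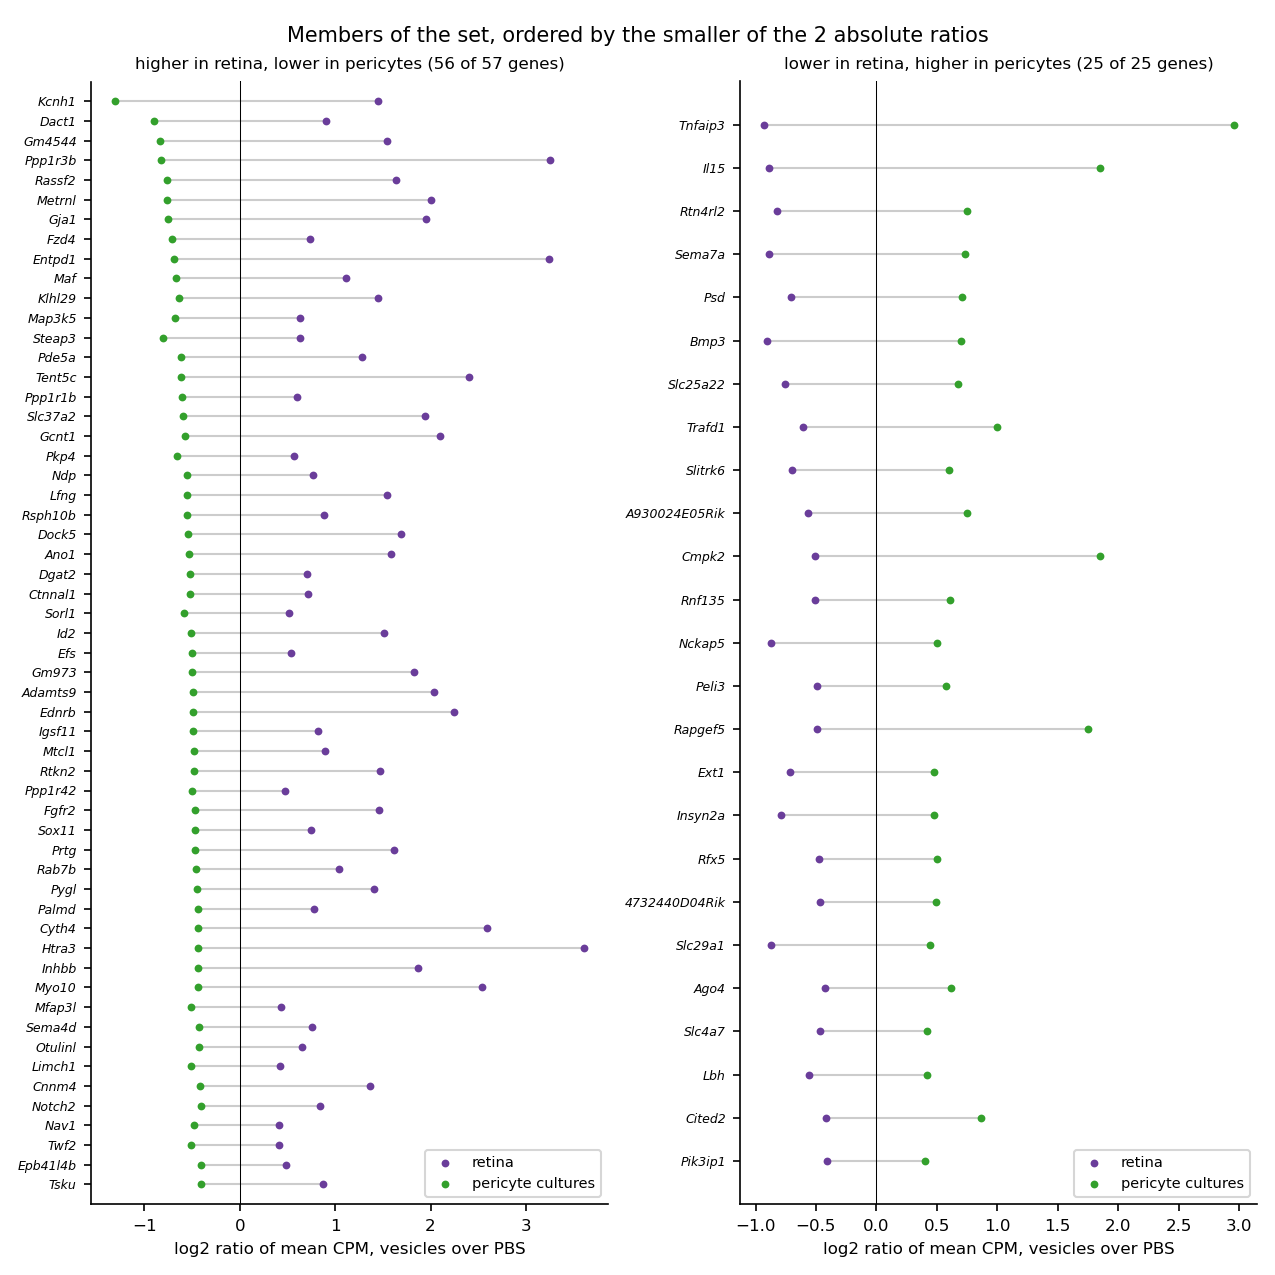
Log2 ratio of mean CPM, vesicles over PBS (x axis), in the retina (purple) and in the pericyte cultures (green) for 81 of the 82 members, 1 line per gene, ordered from the top by the smaller of its 2 absolute ratios. The left panel holds 56 of the 57 genes higher in the retina, led by Kcnh1, and the right panel the 25 genes lower in the retina, led by Tnfaip3; the panels have different x ranges.

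Libraries of 1 group did not contribute equally in the retina. Of the 57 genes, 36 were highest in vesicle library 2, the library with the most lens mRNA, and 16 in library 1. Only 5 were highest in vesicle library 3, which held 38 of the 57 lowest vesicle values. Of the 25 genes lower in the retina, 21 had their lowest value in vesicle library 2. No member is on the lens marker list of 25 genes, and whether members are expressed in lens was not tested. When the lens-richest library of each retina group (vesicle 2 and PBS 1) was left out, the median retina ratio of the 57 genes was 0.88 and that of the 25 was -0.56. The ratio before taking the log moved by over 1.5 times in 5 genes, Kcnh1, Gja1, Tent5c, Fgfr2 and Htra3, all among the 57. Without those libraries the log2 ratio was 0.77 for Kcnh1, 1.22 for Gja1, 1.58 for Tent5c, 0.70 for Fgfr2 and 2.27 for Htra3. Moves under that size still changed small log2 ratios much. Ctnnal1 went from 0.72 to 0.20, Efs from 0.54 to 0.21 and Tsku from 0.88 to 0.39, while others rose, such as Ndp from 0.77 to 1.00.

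Other cell markers moved in the retina beside these genes. The summed level of 22 monocyte and macrophage markers ran from 1108 to 1557 CPM with vesicles, against 201.3 to 252 CPM with PBS, and that of 14 neutrophil markers from 423 to 814 CPM with vesicles, against 19.5 to 44.5 CPM with PBS. Of the neutrophil list, Elane and Mpo, which encode some of the granule proteins, were at 0 in all retina libraries. Pigment epithelium markers summed to between 1891 and 3686 CPM with vesicles, against 461 and 2342 CPM with PBS. Rod photoreceptor markers summed to between 91647 and 119899 CPM with vesicles, against 152317 and 156144 CPM with PBS, a log2 ratio of -0.49, which lies within the range of the 25 genes lower in the retina. Of the 16 cell type lists, the sums of the groups did not overlap for 6 in the retina. Besides the rod, monocyte and macrophage, and neutrophil lists, these were the cone, the bipolar cell and the pericyte and mural cell lists, whose sums were lower. Bipolar markers summed to between 891 and 1155 CPM with vesicles, against 1211 and 1464 CPM with PBS, a log2 ratio of -0.36. The pericyte and mural cell list summed to between 984 and 1176 CPM with vesicles, against 1380 and 1538 CPM with PBS, a log2 ratio of -0.45, and most of it was Vtn, with 919 CPM with vesicles and 1387 CPM with PBS on average. Gene by gene that list did not fall as its sum did. Of 14 of its genes tested in the retina, edgeR called 3 higher and 1 lower, with a median log2 fold change of 0.76.

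In the pericyte cultures the sums lay apart for 12 of the 16 lists, 8 lower and 4 higher with vesicles. The astrocyte markers summed to between 1304 and 1413 CPM with vesicles, against 1617 and 1670 CPM with PBS, a log2 ratio of -0.25. The oligodendrocyte lineage markers summed to between 579.8 and 605 CPM with vesicles, against 743 and 767 CPM with PBS, a log2 ratio of -0.35. Microglia markers, of a cell type that carries the member Entpd1, summed to between 457 and 494 CPM with vesicles, against 525 and 566 CPM with PBS, a log2 ratio of -0.19. Of 9 microglia markers tested in the cultures, edgeR called 0 higher and 1 lower. In the retina it called 4 higher and 4 lower of 13. There the sums overlapped, from 110 to 237 CPM with vesicles, against 106 to 116 CPM with PBS. The other lists with lower sums in the cultures were those of bipolar cells (-0.37), cones (-0.39), pigment epithelium (-0.48), endothelial cells (-0.11) and fibroblasts (-0.13). In cultures labelled as brain cells, the lists of retinal cells and pigment epithelium are sums of genes and do not measure such cells. Of the bipolar list, Grm6, Isl1 and Scgn were at 0 in all culture libraries. Cone sums were low, from 9.58 to 12.6 CPM with vesicles, against 13.9 to 15.7 CPM with PBS. So were pigment epithelium sums, from 11.0 to 12.6 CPM with vesicles, against 15.3 to 17.2 CPM with PBS. Of 11 endothelial markers tested, edgeR called 1 higher and 3 lower, with a median log2 fold change of 0.21. Monocyte and macrophage markers were higher, from 141 to 204 CPM with vesicles, against 117 to 124 CPM with PBS, a log2 ratio of 0.50. The sums for neutrophils (0.68), ganglion cells (0.16) and amacrine and horizontal cells (0.09) were higher too. The neutrophil sum was very low, from 4.06 to 4.40 CPM with vesicles, against 2.19 to 3.06 CPM with PBS. Of 2 neutrophil markers tested there, edgeR called 1 higher and 1 lower. The part of these markers' cells in the members' differences was not tested. In bulk libraries fewer cells of a type and less RNA per cell cannot be told apart.

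In what follows, 3 values of a group are those of its libraries 1, 2 and 3, and a number in brackets after both groups is the log2 ratio of mean CPM. Where a pair of ratios is given, the retina's comes before that of the cultures. Genes outside the set are given as mean CPM ± SD over 3 libraries, with edgeR's log2 fold change ± SE and adjusted p.

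Among the 57 genes, 4 act in Wnt and frizzled signalling. Fzd4, the norrin receptor, had 31.5, 44.3 and 30.3 CPM with vesicles, against 17.2, 20.4 and 25.9 CPM with PBS in the retina (log2 ratio 0.74). In the cultures it had 2.49, 3.003 and 2.801 CPM with vesicles, against 4.14, 4.97 and 4.51 CPM with PBS (-0.72). Its highest retina value was again vesicle library 2, and without the lens-richest libraries its retina ratio was 0.42. Ndp, which encodes norrin, had 31.3, 22.03 and 26.6 CPM with vesicles, against 17.97, 14.6 and 14.4 CPM with PBS in the retina (0.77). The cultures gave 14.9, 11.8 and 11.5 CPM with vesicles, against 16.99, 20.7 and 18.5 CPM with PBS (-0.56). Ligand and receptor moved the same way within each table, higher in the retina and lower in the cultures, each by less than 2-fold. The opposite signs between the tables were set by the rule. Ndp was not highest in the lens-rich library, and without the lens-richest libraries its retina ratio was 1.00.

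The other parts of the norrin complex did not follow this pattern. Tspan12, the tetraspanin partner of frizzled 4, had 22.4 ± 3.44 CPM with vesicles and 21.9 ± 4.19 CPM with PBS (log2 fold change 0.07 ± 0.18, adjusted p = 0.840) in the retina and 79.7 ± 5.03 CPM with vesicles and 81.4 ± 7.21 CPM with PBS (log2 fold change 0.02 ± 0.07, adjusted p = 0.910) in the cultures. Lrp5, a co-receptor, had 2.36 ± 0.573 CPM with vesicles and 1.801 ± 1.16 CPM with PBS (log2 fold change 0.43 ± 0.49, adjusted p = 0.596) in the retina and 51.3 ± 5.36 CPM with vesicles and 58.5 ± 1.07 CPM with PBS (log2 fold change -0.14 ± 0.07, adjusted p = 0.198) in the cultures. Neither passed edgeR in either table, and neither did Lrp6. These partners were picked with earlier values known and are shown for context.

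Dact1, which binds dishevelled inside the cell, had 2.59, 3.56 and 1.91 CPM with vesicles, against 1.41, 1.25 and 1.66 CPM with PBS in the retina (0.90) and 0.954, 1.35 and 0.987 CPM with vesicles, against 1.396, 2.42 and 2.32 CPM with PBS in the cultures (-0.90). Its culture groups nearly touched. Tsku, a secreted proteoglycan that modulates Wnt and BMP ligands, had ratios of 0.88 and -0.41. Of the broader Wnt list, Fzd4 included, edgeR called 3 genes higher and 1 lower of 28 tested in the retina (median log2 fold change 0.27). In the cultures it called 4 higher and 12 lower of 30 (median -0.15), against a median of -0.02 and 0.00 over all genes tested. The other 2 retina calls upward were Fzd1, with 9.45 ± 0.921 CPM with vesicles and 4.76 ± 1.49 CPM with PBS (log2 fold change 1.03 ± 0.26, adjusted p = 0.0241), and Fzd7, with 9.64 ± 2.13 CPM with vesicles and 3.41 ± 1.22 CPM with PBS (log2 fold change 1.55 ± 0.31, adjusted p = 0.00864). Fzd1 was higher in the cultures too, at 189.7 ± 5.56 CPM with vesicles and 160.1 ± 3.605 CPM with PBS (log2 fold change 0.29 ± 0.05, adjusted p = 4.13e-04). Among the genes that fell in the cultures were Wnt4, with 19.4 ± 0.466 CPM with vesicles and 34.8 ± 3.54 CPM with PBS (log2 fold change -0.79 ± 0.09, adjusted p = 8.44e-07), and Nkd1, an inhibitor of dishevelled, with 3.39 ± 0.877 CPM with vesicles and 7.88 ± 1.03 CPM with PBS (log2 fold change -1.17 ± 0.19, adjusted p = 9.13e-05).

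The promoters of these genes and of 2 that follow are printed for the bases before the start site, since ligand and receptor, a Notch modifier and an NF-kB target moved apart between tables. Sequences are RefSeq's for build GRCm38.p6, the 250 bases before the start, 5′ to 3′ on the gene's strand, and the positions are that table's, since the authors' build was not given in the sources used here. Capitals mark matches to 4 searched motifs on either strand, which were the NF-kB consensus, a paired GAAA (GAAA, any 2 bases, GAAA, the core of interferon response elements), GTGGGAA and TATAAA. Positions count back from the start, with -1 the base before it.
Fzd4 (plus strand, chr7:89404116-89404365): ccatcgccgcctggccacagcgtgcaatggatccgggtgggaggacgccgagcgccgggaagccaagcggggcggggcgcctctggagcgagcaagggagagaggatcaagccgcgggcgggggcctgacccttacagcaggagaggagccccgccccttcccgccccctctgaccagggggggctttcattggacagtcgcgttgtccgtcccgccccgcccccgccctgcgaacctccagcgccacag
Ndp (minus strand, chrX:16911775-16912024): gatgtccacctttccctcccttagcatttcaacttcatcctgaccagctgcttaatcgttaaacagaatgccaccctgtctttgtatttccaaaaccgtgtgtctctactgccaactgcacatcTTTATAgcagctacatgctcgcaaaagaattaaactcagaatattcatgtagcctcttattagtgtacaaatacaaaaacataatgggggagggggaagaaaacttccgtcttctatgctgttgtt
Lfng (plus strand, chr5:140607091-140607340): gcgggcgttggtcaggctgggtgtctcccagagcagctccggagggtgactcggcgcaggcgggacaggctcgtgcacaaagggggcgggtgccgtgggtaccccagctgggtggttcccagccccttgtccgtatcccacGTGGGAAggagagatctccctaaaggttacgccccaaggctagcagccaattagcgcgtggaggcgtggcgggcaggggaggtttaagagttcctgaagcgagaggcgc
Tnfaip3 (minus strand, chr10:19015411-19015660): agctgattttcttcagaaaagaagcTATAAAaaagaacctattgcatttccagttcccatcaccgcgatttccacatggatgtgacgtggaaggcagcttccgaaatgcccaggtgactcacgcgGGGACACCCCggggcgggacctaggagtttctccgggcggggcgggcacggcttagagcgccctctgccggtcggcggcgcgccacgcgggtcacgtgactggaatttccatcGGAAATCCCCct

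The Fzd4 window held none of the 4 motifs and 72.8% G and C, and the Ndp window 41.2%, with a TATAAA on the opposite strand from -126 to -121. The Lfng window held GTGGGAA, a core of RBPJ sites, from -109 to -103. The Tnfaip3 window held NF-kB matches from -125 to -116 and, on the opposite strand, from -12 to -3, and TATAAA from -225 to -220. Over the 66 of 82 members with an entry, the median G and C content was 68.0% in the 45 matched genes higher in the retina and 59.2% in the 21 matched genes lower in the retina. It was 60.4% in 9220 matched genes at the CPM minimum. The NF-kB consensus was found in 3 of the 21 (Tnfaip3, Rtn4rl2 and Slc29a1) and in 3 of the 45 (Ano1, Notch2 and Steap3), beside 5.51% of the 9220 genes at the CPM minimum and 4.46% of all 27025 genes in the promoter table. GTGGGAA was in 3 of the 21 and 2 of the 45, beside 6.37% of the 9220 and 6.18% of all. The paired GAAA was in 1 of the 21 and 2 of the 45, beside 3.11% and 3.46%. TATAAA was in 3 of the 21 and 6 of the 45, beside 7.55% of the 9220 and 14.3% of all. Where the table lists several starts for a gene, in the set or outside it, a match before any of them counted, and G and C content is that of the first listed. A match describes letters only, and nothing about the factor is read from it.

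Notch signalling gave a receptor and its modifier. Notch2 had 14.8, 18.9 and 14.04 CPM with vesicles, against 6.61, 7.87 and 12.1 CPM with PBS in the retina (0.85). Its culture values were 222, 276 and 285 CPM with vesicles, against 329, 359.5 and 353 CPM with PBS (-0.41). That culture ratio was -0.37 with TMM-scaled library sizes and -0.31 without culture vesicle library 1, both short of the 0.4 limit. Lfng, the lunatic fringe glycosyltransferase whose promoter is shown above, had 23.4, 27.3 and 12.8 CPM with vesicles, against 6.16, 8.12 and 7.44 CPM with PBS in the retina (1.55). The pericyte cultures had 135, 136 and 126 CPM with vesicles, against 196, 190.3 and 197 CPM with PBS (-0.56). The 3 culture values of each group lay close together for Lfng, while in the retina its lowest vesicle value was 1.57 times the highest PBS value.

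Of the Notch list, both members included, edgeR called 3 genes higher and 2 lower of 20 tested in the retina (median log2 fold change -0.26), and 0 higher and 9 lower of 22 in the cultures (median -0.40). Of all genes tested, it called 10.7% higher and 5.19% lower in the retina, and 10.9% higher and 8.9% lower in the cultures. In the cultures the genes that fell included the transcription factors Hey1, with 81.6 ± 0.424 CPM with vesicles and 125 ± 5.17 CPM with PBS (log2 fold change -0.56 ± 0.06, adjusted p = 2.04e-07), and Hes6, with 36.6 ± 3.802 CPM with vesicles and 56.97 ± 1.35 CPM with PBS (log2 fold change -0.59 ± 0.08, adjusted p = 6.43e-06). So did the receptors Notch1, with 137 ± 9.43 CPM with vesicles and 177 ± 4.42 CPM with PBS (log2 fold change -0.32 ± 0.06, adjusted p = 2.85e-04), and Notch3, with 18.3 ± 1.696 CPM with vesicles and 25.4 ± 1.09 CPM with PBS (log2 fold change -0.43 ± 0.09, adjusted p = 0.00169). In the retina the third gene that rose was the target Hey2, with 35.2 ± 6.42 CPM with vesicles and 15.9 ± 4.0002 CPM with PBS (log2 fold change 1.18 ± 0.23, adjusted p = 0.00939). The target Hes5, with 0.687 ± 0.204 CPM with vesicles and 2.59 ± 0.8995 CPM with PBS (log2 fold change -1.87 ± 0.40, adjusted p = 0.0120), and the ligand Jag1, with 53.2 ± 4.77 CPM with vesicles and 73.5 ± 5.46 CPM with PBS (log2 fold change -0.43 ± 0.09, adjusted p = 0.0115), fell there. Hey1 had 7.51 ± 1.43 CPM with vesicles and 10.1 ± 2.01 CPM with PBS (log2 fold change -0.38 ± 0.22, adjusted p = 0.284) in the retina and did not pass. The difference between the tables was not tested.

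Among the 57 genes, 3 were grouped under TGF-beta and BMP signalling. Another BMP gene, the ligand Bmp3, was among the 25 and had the opposite signs, with ratios of -0.90 and 0.70. Id2, a helix-loop-helix protein that blocks DNA binding by its partners and is induced by BMPs, had 139, 169 and 112 CPM with vesicles, against 42.4, 51.6 and 53.1 CPM with PBS in the retina (1.51) and 81.5, 66.6 and 76.9 CPM with vesicles, against 105, 107 and 110.04 CPM with PBS in the cultures (-0.52). Inhbb, the beta B subunit of activins and inhibins, had 6.62, 6.71 and 2.87 CPM with vesicles, against 1.03, 2.12 and 1.29 CPM with PBS in the retina (1.87) and 25.3, 29.2 and 24.4 CPM with vesicles, against 36.1, 34.2 and 36.2 CPM with PBS in the cultures (-0.44). Htra3, a secreted serine protease, had 8.198, 26.1 and 1.66 CPM with vesicles, against 0.899, 0.749 and 1.29 CPM with PBS in the retina. Its ratio of 3.61 there was the highest of all members and rested on vesicle library 2, without which it was 2.33. In the cultures Htra3 had 5.52, 7.06 and 6.72 CPM with vesicles, against 8.93, 7.15 and 10.03 CPM with PBS (-0.44), with vesicle library 2 close to PBS library 2.

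The Id family moved both ways in the cultures. There Id1 had 119 ± 9.66 CPM with vesicles and 105 ± 10.7 CPM with PBS (log2 fold change 0.24 ± 0.07, adjusted p = 0.0302) and Id3 375 ± 19.1 CPM with vesicles and 326 ± 13.7 CPM with PBS (log2 fold change 0.25 ± 0.06, adjusted p = 0.00443), both higher. Id4 was lower like Id2, with 15.4 ± 1.36 CPM with vesicles and 30.7 ± 1.89 CPM with PBS (log2 fold change -0.95 ± 0.09, adjusted p = 1.55e-07). The list's calls were 11 higher and 0 lower of 36 in the retina (median log2 fold change 0.89) and 15 higher and 6 lower of 35 in the cultures (median 0.17), Id2 and Inhbb included. Neither Bmp3 nor Htra3 is on that list. Tgfb2, which was not a member, had 46.1 ± 12.5 CPM with vesicles and 23.3 ± 2.71 CPM with PBS (log2 fold change 1.03 ± 0.23, adjusted p = 0.0202) in the retina and 35.7 ± 2.23 CPM with vesicles and 45.8 ± 2.13 CPM with PBS (log2 fold change -0.31 ± 0.07, adjusted p = 0.00418) in the cultures.

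Other receptors and secreted factors numbered 4. Ednrb, the endothelin receptor B of glia and vessels, had 39.8, 29.9 and 30.3 CPM with vesicles, against 7.51, 6.18 and 7.38 CPM with PBS in the retina (2.25). Culture libraries held 152, 150.2 and 149 CPM with vesicles, against 207, 212 and 213 CPM with PBS (-0.49). Each group was narrow in both tables, and the lowest retina value with vesicles was 3.98 times the highest with PBS. Leaving out the lens-richest libraries gave a retina ratio of 2.37. The related receptor Ednra rose in the retina, with 1.99 ± 0.543 CPM with vesicles and 0.774 ± 0.184 CPM with PBS (log2 fold change 1.40 ± 0.40, adjusted p = 0.0414), and fell in the cultures, with 6.83 ± 0.231 CPM with vesicles and 10.6 ± 0.405 CPM with PBS (log2 fold change -0.59 ± 0.12, adjusted p = 0.00155). Its retina mean stayed just under the 2 CPM limit, which kept it out of the set. Of the ligands, Edn2 rose in the retina, with 55.5 ± 10.1 CPM with vesicles and 10.1 ± 5.61 CPM with PBS (log2 fold change 2.50 ± 0.52, adjusted p = 0.0353), and was at 0 in all 6 culture libraries, while Edn1 fell in the cultures, with 1.49 ± 0.190 CPM with vesicles and 3.22 ± 0.956 CPM with PBS (log2 fold change -1.06 ± 0.27, adjusted p = 0.00702).

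Fgfr2, a fibroblast growth factor receptor, had 15.1, 23.7 and 12.96 CPM with vesicles, against 1.54, 5.12 and 12.2 CPM with PBS in the retina (1.46). PBS library 3 lay just under the lowest vesicle library, and without it the ratio was 2.37. In the cultures Fgfr2 had 90.1, 93.8 and 95.8 CPM with vesicles, against 128, 124 and 136 CPM with PBS (-0.47). Metrnl, the secreted protein meteorin-like, had 7.69, 12.5 and 5.11 CPM with vesicles, against 2.503, 1.12 and 2.71 CPM with PBS in the retina (2.00) and 21.2, 21.1 and 17.6 CPM with vesicles, against 33.5, 33.2 and 34.6 CPM with PBS in the cultures (-0.76). Sema4d, a semaphorin that binds plexin B1, had ratios of 0.76 and -0.43.

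Channels, junctions and transporters gave 6 members, with retina ratios from 0.63 to 1.95 and culture ratios from -1.31 to -0.41. Gja1, which encodes the gap junction protein connexin 43 of astrocytes and Müller glia, had 121, 172 and 66.1 CPM with vesicles, against 12.1, 47.5 and 33.3 CPM with PBS in the retina (1.95). In the cultures it had 99.7, 82.8 and 98.05 CPM with vesicles, against 154, 161 and 158 CPM with PBS (-0.75). The retina libraries of each group were spread over a wide range and PBS library 1 was the lowest. Vesicle library 2, the richest in lens mRNA, was the highest. Without the lens-richest libraries the retina ratio was 1.22, and with all libraries edgeR did not call Gja1 in the retina. The culture groups were tight and far apart. On the astrocyte list, Gja1 included, edgeR called 1 gene higher and 2 lower of 9 in the retina and 0 higher and 5 lower of 9 in the cultures. The gene that rose in the retina was Gfap, with 143 ± 39.4 CPM with vesicles and 44.3 ± 12.8 CPM with PBS (log2 fold change 1.73 ± 0.30, adjusted p = 0.0136).

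Kcnh1, a voltage-gated potassium channel, was the member whose smaller ratio was largest on the retina-higher side. It had 6.68, 12.3 and 4.28 CPM with vesicles, against 2.12, 3.25 and 3.197 CPM with PBS in the retina (1.44) and 1.01, 2.38 and 1.92 CPM with vesicles, against 4.66, 4.15 and 4.37 CPM with PBS in the cultures (-1.31). The others were Cnnm4, a magnesium transporter, with ratios of 1.36 and -0.41, Slc37a2, a sugar phosphate exchanger, with 1.94 and -0.59, Ano1, a calcium-activated chloride channel, with 1.58 and -0.54, and Steap3, an iron reductase. Steap3 had the smallest retina ratio of these, 0.63, and a culture ratio of -0.80.

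**Figure D3:**
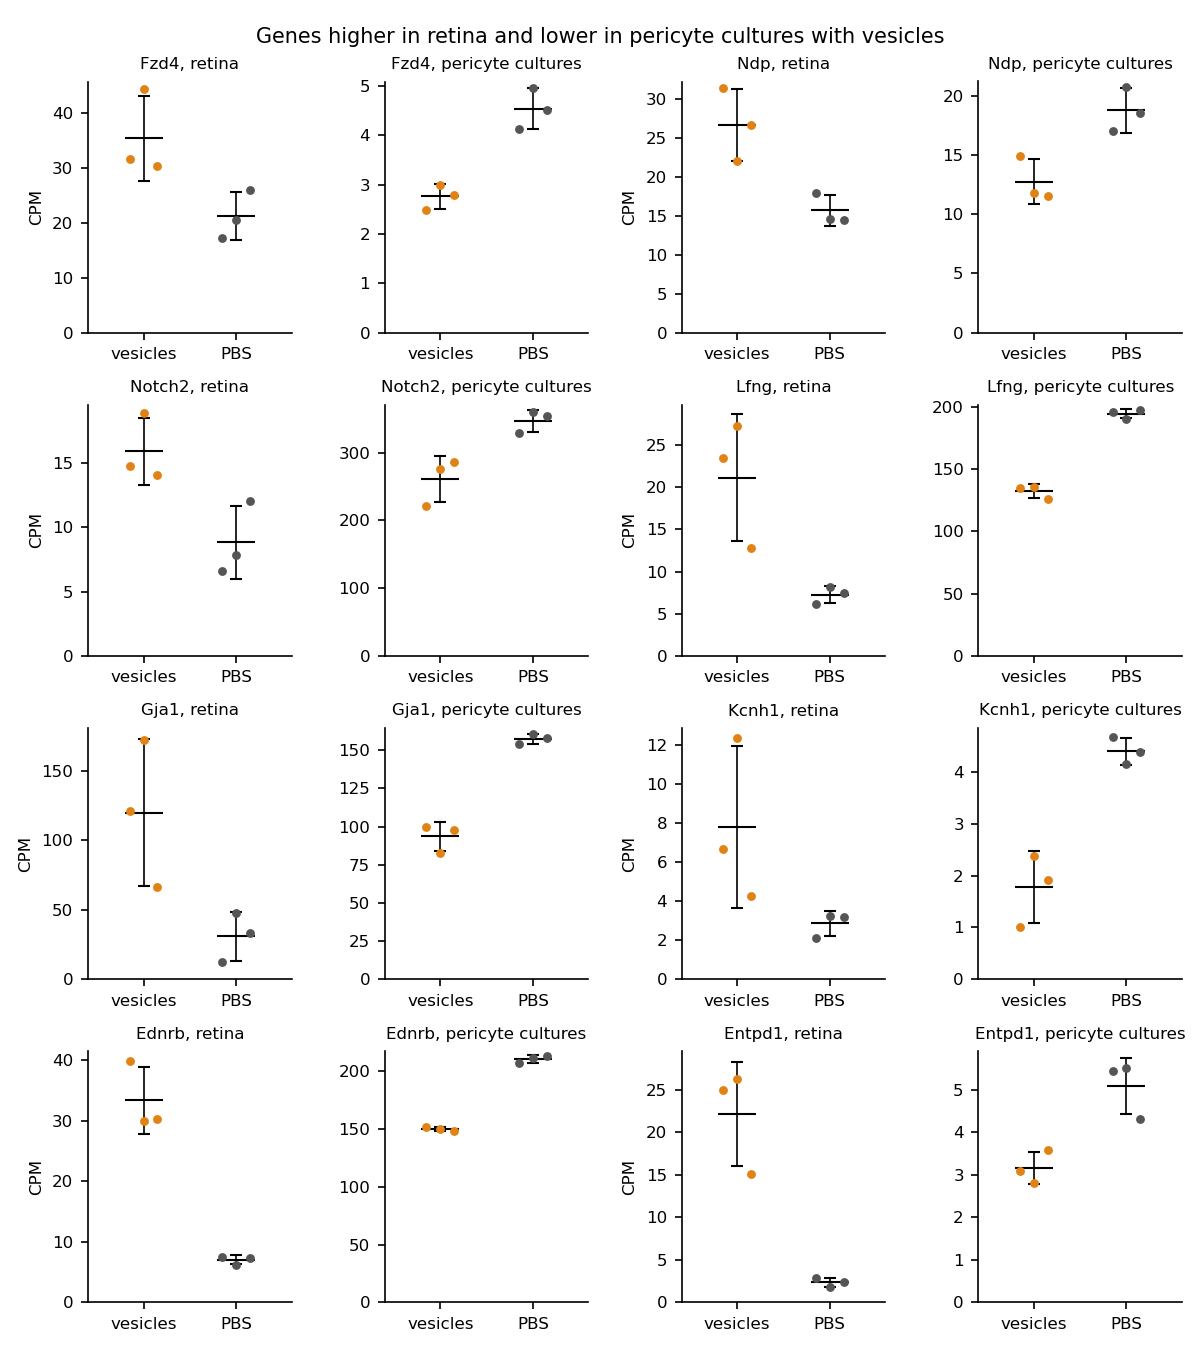
CPM by library in the retina and the pericyte cultures for 8 of the 57 genes, vesicles in orange and PBS in grey; each point is a library, bars are the mean ± SD of 3 libraries, and each panel has its own y axis from 0. In every retina panel the vesicle points lie above the PBS points and in every culture panel under them, which is how the genes were chosen; the spread within a group is widest for Gja1 and Kcnh1 in the retina, where vesicle library 2 is highest.

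Metabolism and nucleotide handling gave 7 members. Entpd1, the ectoenzyme CD39 that splits extracellular ATP and ADP and is carried by microglia, leukocytes and endothelium, had 24.97, 26.3 and 15.1 CPM with vesicles, against 2.82, 1.81 and 2.398 CPM with PBS in the retina (3.24). Its lowest vesicle value was 5.36 times the highest PBS value, the widest gap of any member in the retina. In the cultures Entpd1 had 3.09, 2.81 and 3.57 CPM with vesicles, against 5.43, 5.51 and 4.32 CPM with PBS (-0.69). Nt5e, which takes the next step from AMP to adenosine, was lower in both tables, with 138 ± 23.00 CPM with vesicles and 211 ± 9.15 CPM with PBS (log2 fold change -0.59 ± 0.11, adjusted p = 0.00599) in the retina and 1.44 ± 0.381 CPM with vesicles and 3.002 ± 0.936 CPM with PBS (log2 fold change -1.01 ± 0.29, adjusted p = 0.0169) in the cultures. The adenosine receptor Adora2b rose in the retina, with 20.6 ± 5.83 CPM with vesicles and 6.92 ± 2.58 CPM with PBS (log2 fold change 1.62 ± 0.32, adjusted p = 0.0132).

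Both ends of glycogen handling were present. Ppp1r3b, which brings a phosphatase to glycogen and favours its synthesis, had 6.43, 9.44 and 7.21 CPM with vesicles, against 0.385, 0.312 and 1.72 CPM with PBS in the retina (3.25). PBS library 3 held most of the PBS signal, and without it the ratio was 4.46. In the cultures Ppp1r3b had 2.400, 1.73 and 1.68 CPM with vesicles, against 2.898, 3.000 and 4.43 CPM with PBS (-0.83). Pygl, a glycogen phosphorylase that breaks glycogen down, had 41.2, 81.04 and 22.5 CPM with vesicles, against 19.3, 19.5 and 15.7 CPM with PBS in the retina (1.41, and 0.81 without vesicle library 2). The cultures gave 36.1, 35.03 and 33.1 CPM with vesicles, against 45.3, 47.5 and 49.7 CPM with PBS (-0.45). On a glycogen list, these 2 included, edgeR called 1 gene higher and 1 lower of 13 in the retina and 0 higher and 6 lower of 14 in the cultures. The brain isoform Pygb was lower in both tables, with 44.1 ± 5.29 CPM with vesicles and 57.9 ± 2.94 CPM with PBS (log2 fold change -0.36 ± 0.11, adjusted p = 0.0493) in the retina and 414 ± 11.1 CPM with vesicles and 660.02 ± 31.1 CPM with PBS (log2 fold change -0.63 ± 0.06, adjusted p = 4.17e-08) in the cultures.

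The remaining 4 of this group were Gcnt1, which branches O-glycans, with ratios of 2.10 and -0.57, Pde5a, the phosphodiesterase of cyclic GMP, with 1.28 and -0.62, Dgat2, which makes triglycerides, with 0.71 and -0.52, and Sorl1, a sorting receptor, with 0.52 and -0.58. Sorl1 was the only one of the 7 whose culture ratio was the larger.

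The largest role group held 16 genes of the cytoskeleton and of adhesion, with a median retina ratio of 0.80 and a median culture ratio of -0.49. Myo10, an unconventional myosin of filopodia, had 92.6, 84.2 and 63.00 CPM with vesicles, against 11.2, 10.6 and 19.3 CPM with PBS in the retina (2.54). Its culture values were 179.6, 216 and 216 CPM with vesicles, against 267, 275 and 285 CPM with PBS (-0.43). Cyth4, an exchange factor for Arf GTPases found mainly in leukocytes, had 19.1, 16.9 and 14.7 CPM with vesicles, against 3.59, 1.62 and 3.197 CPM with PBS in the retina (2.59) and 3.15, 2.62 and 2.51 CPM with vesicles, against 4.24, 3.33 and 3.66 CPM with PBS in the cultures (-0.44). Both had retina groups far apart, while the vesicle and PBS values of Cyth4 in the cultures were all below 5 CPM.

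Rassf2, a Ras-association protein, had 7.504, 6.95 and 4.596 CPM with vesicles, against 1.99, 1.56 and 2.58 CPM with PBS in the retina (1.63) and 25.1, 27.8 and 26.2 CPM with vesicles, against 46.4, 45.1 and 42.8 CPM with PBS in the cultures (-0.76). Klhl29, a kelch-family protein, had 75.6, 61.6 and 45.96 CPM with vesicles, against 24.1, 17.7 and 25.5 CPM with PBS in the retina (1.45) and 13.4, 15.4 and 13.4 CPM with vesicles, against 19.9, 22.3 and 23.2 CPM with PBS in the cultures (-0.63). Dock5 and Rtkn2, both tied to small GTPases, had retina ratios of 1.69 and 1.47 and culture ratios of -0.54 and -0.48. At the narrow end stood Ctnnal1, a relative of alpha-catenin, with 24.5, 54.03 and 24.6 CPM with vesicles, against 19.8, 18.5 and 24.4 CPM with PBS in the retina (0.72). There vesicle libraries 1 and 3 barely cleared PBS library 3, and without the lens-richest libraries the ratio was 0.20. The other 9 (Pkp4, Limch1, Nav1, Twf2, Palmd, Mtcl1, Epb41l4b, Efs and Igsf11) had retina ratios from 0.41 to 0.90 and culture ratios from -0.66 to -0.41.

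Of 13 genes with other roles, Maf, a leucine zipper transcription factor, had 17.8, 31.6 and 11.7 CPM with vesicles, against 8.54, 9.804 and 9.96 CPM with PBS in the retina (1.11). The pericyte cultures had 26.3, 21.9 and 26.8 CPM with vesicles, against 39.3, 38.6 and 41.6 CPM with PBS (-0.67). Map3k5, the stress-activated kinase ASK1, had 11.8, 14.1 and 11.7 CPM with vesicles, against 5.84, 8.06 and 10.4 CPM with PBS in the retina (0.63) and 7.81, 8.603 and 6.43 CPM with vesicles, against 11.4, 12.1 and 13.2 CPM with PBS in the cultures (-0.68). Adamts9, a secreted metalloproteinase, had 4.04, 2.97 and 2.74 CPM with vesicles, against 0.449, 1.06 and 0.861 CPM with PBS in the retina (2.04) and 32.3, 33.95 and 40.8 CPM with vesicles, against 51.2, 51.5 and 47.7 CPM with PBS in the cultures (-0.49). For Adamts9 the retina difference exceeded the culture difference, while for Map3k5 it was the smaller. For Maf it was the larger with all libraries, but vesicle library 2 was the highest. Without the lens-richest libraries the retina ratio of Maf was 0.58, smaller in size than its culture ratio, and edgeR did not call Maf in the retina.

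Tent5c, a poly(A) polymerase, had 10.3, 24.2 and 3.96 CPM with vesicles, against 2.503, 1.81 and 2.95 CPM with PBS in the retina (2.40, and 1.56 without vesicle library 2) and 3.96, 4.49 and 4.96 CPM with vesicles, against 6.85, 6.64 and 7.03 CPM with PBS in the cultures (-0.61). Sox11, a transcription factor of developing neurons, had ratios of 0.75 and -0.47, and Ppp1r1b, the phosphatase inhibitor DARPP-32, 0.60 and -0.61. A further 6 (Ppp1r42, Otulinl, Rab7b, Prtg, Mfap3l and Rsph10b) had retina ratios from 0.43 to 1.62 and culture ratios from -0.55 to -0.43. The unnamed gene models among the 57 numbered 2, with retina ratios of 1.54 and 1.83.

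Among the 25 genes lower in the retina, 7 act in innate immune signalling, 7 are neuronal and 3 are solute carriers, 6 have other roles, and 2 are unnamed models. The innate immune and neuronal roles were used only for genes lower in the retina. On the opposite side Sox11, a gene of developing neurons, was placed under other roles. The role counts therefore do not compare the directions, and no share of these roles over all genes is given. Tnfaip3 (A20), whose promoter is printed above, had 120.1, 104 and 140.1 CPM with vesicles, against 222, 243 and 229 CPM with PBS in the retina. Every vesicle library there was lower than every PBS library, a log2 ratio of -0.93, the most negative retina ratio of all members. In the pericyte cultures Tnfaip3 had 154, 165 and 176 CPM with vesicles, against 24.6, 19.4 and 20.1 CPM with PBS, a ratio of 2.95, the most positive culture ratio of all members. Without the lens-richest libraries its retina ratio was -0.86.

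The retina level of Tnfaip3 went against the genes it is usually grouped with. On the list of cytokines and NF-kB targets, edgeR called 24 genes higher and 1 lower of 26 tested in the retina, with a median log2 fold change of 3.36, and the 1 lower was Tnfaip3. In the cultures it called 26 higher and 1 lower of 28, with a median of 2.48, and the 1 lower was the adaptor gene Traf1. The A20 binding partners Tnip1 and Tnip2 rose in both tables. Tnip1 had 19.3 ± 3.91 CPM with vesicles and 8.62 ± 1.88 CPM with PBS (log2 fold change 1.20 ± 0.21, adjusted p = 0.00455) in the retina and 146 ± 4.28 CPM with vesicles and 60.5 ± 2.29 CPM with PBS (log2 fold change 1.32 ± 0.06, adjusted p = 2.70e-13) in the cultures. Tnip2 had 38.4 ± 4.66 CPM with vesicles and 18.4 ± 2.83 CPM with PBS (log2 fold change 1.10 ± 0.16, adjusted p = 0.00221) in the retina and 17.2 ± 1.54 CPM with vesicles and 12.2 ± 1.16 CPM with PBS (log2 fold change 0.54 ± 0.11, adjusted p = 0.00103) in the cultures. Of the other partners, Itch had 95.3 ± 4.87 CPM with vesicles and 103 ± 8.09 CPM with PBS (log2 fold change -0.08 ± 0.10, adjusted p = 0.606) in the retina and Tax1bp1 822 ± 46.7 CPM with vesicles and 683 ± 97.6 CPM with PBS (log2 fold change 0.30 ± 0.12, adjusted p = 0.139), and neither passed in either table.

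Il15, a cytokine that keeps natural killer cells and memory T cells alive, had 5.11, 3.03 and 5.87 CPM with vesicles, against 7.64, 9.05 and 9.28 CPM with PBS in the retina (-0.89). Culture libraries held 3.61, 2.89 and 3.01 CPM with vesicles, against 0.764, 0.697 and 1.18 CPM with PBS (1.85). Both tables gave low levels and groups that lay apart. Its receptor chain Il15ra did not pass in either table, with 1.33 ± 0.397 CPM with vesicles and 1.08 ± 0.239 CPM with PBS (log2 fold change 0.32 ± 0.37, adjusted p = 0.603) in the retina and 9.66 ± 0.463 CPM with vesicles and 9.29 ± 1.56 CPM with PBS (log2 fold change 0.10 ± 0.13, adjusted p = 0.682) in the cultures. The shared receptor chains rose in the retina, Il2rb with 1.47 ± 0.123 CPM with vesicles and 0.125 ± 0.0611 CPM with PBS (log2 fold change 3.51 ± 0.51, adjusted p = 0.00190) and Il2rg with 5.53 ± 1.11 CPM with vesicles and 1.53 ± 0.689 CPM with PBS (log2 fold change 1.88 ± 0.36, adjusted p = 0.00735).

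Cmpk2, a mitochondrial nucleotide kinase induced by interferon, had 17.7, 11.1 and 17.9 CPM with vesicles, against 22.5, 19.7 and 24.3 CPM with PBS in the retina (-0.51). In the cultures it had 129, 148 and 134 CPM with vesicles, against 36.7, 39.5 and 37.97 CPM with PBS (1.85). Without the lens-richest libraries its retina ratio was -0.30. On the list of interferon-stimulated genes, edgeR called 33 higher and 0 lower of 41 in the retina (median log2 fold change 1.72) and 41 higher and 0 lower of 41 in the cultures (median 2.53). Cmpk2 was the list's only member of the 82, and edgeR did not call it in the retina.

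Regulators of RNA sensing and Toll-like receptor signalling followed. Trafd1, a zinc finger protein that dampens these pathways, had 122, 105 and 135 CPM with vesicles, against 179.97, 188 and 183 CPM with PBS in the retina (-0.60). The cultures gave 132, 155 and 148 CPM with vesicles, against 73.7, 71.9 and 71.8 CPM with PBS (1.00). The groups were narrow in both tables, PBS above in the retina and below in the cultures. Rnf135 (Riplet), the ubiquitin ligase that activates the RNA sensor RIG-I, had 1.64, 1.84 and 1.47 CPM with vesicles, against 2.37, 2.56 and 2.09 CPM with PBS in the retina (-0.51). Its culture values were 28.6, 31.00 and 29.3 CPM with vesicles, against 19.3, 20.5 and 18.4 CPM with PBS (0.61). Its retina values were near the 2 CPM limit. Peli3, a Pellino ubiquitin ligase, had 40.04, 33.4 and 44.8 CPM with vesicles, against 52.6, 50.4 and 63.7 CPM with PBS in the retina (-0.50) and 8.91, 6.79 and 7.73 CPM with vesicles, against 4.08, 6.58 and 5.03 CPM with PBS in the cultures (0.58). The culture groups nearly touched.

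Genes of RIG-I sensing and the Pellino ligases made a list of 10 that was added after values were seen and holds these 3 members. In the retina edgeR called 3 of the 10 higher and 2 lower (median log2 fold change 0.19), and in the cultures 7 higher and 1 lower (median 0.85). The 2 lower in the retina were the members Trafd1 and Peli3. The 3 higher there were the sensors Ddx58 and Ifih1 and the ligase Trim25, which were higher in the cultures too. Ddx58, which encodes RIG-I, had 20.9 ± 6.66 CPM with vesicles and 6.998 ± 0.292 CPM with PBS (log2 fold change 1.61 ± 0.23, adjusted p = 0.00174) in the retina and 277 ± 3.73 CPM with vesicles and 69.6 ± 2.02 CPM with PBS (log2 fold change 2.04 ± 0.06, adjusted p = 7.10e-17) in the cultures. Trim25, another ubiquitin ligase of RIG-I, had 25.04 ± 6.17 CPM with vesicles and 9.64 ± 2.23 CPM with PBS (log2 fold change 1.41 ± 0.21, adjusted p = 0.00250) in the retina and 94.00 ± 6.03 CPM with vesicles and 32.8 ± 1.29 CPM with PBS (log2 fold change 1.57 ± 0.07, adjusted p = 1.36e-13) in the cultures. The related sensor Dhx58 did not pass in the retina, with 3.16 ± 0.441 CPM with vesicles and 1.72 ± 0.509 CPM with PBS (log2 fold change 0.91 ± 0.33, adjusted p = 0.0940), and rose in the cultures, with 31.1 ± 1.96 CPM with vesicles and 4.295 ± 0.433 CPM with PBS (log2 fold change 2.91 ± 0.11, adjusted p = 2.42e-14). The relatives Peli1 and Peli2 did not pass in the retina, and in the cultures Peli2 was lower, with 43.5 ± 4.24 CPM with vesicles and 53.1 ± 2.89 CPM with PBS (log2 fold change -0.24 ± 0.08, adjusted p = 0.0298). Rfx5, the DNA-binding part of the complex on MHC class II promoters, had 8.77, 9.68 and 10.9 CPM with vesicles, against 12.3, 15.7 and 12.7 CPM with PBS in the retina (-0.47) and 34.9, 38.4 and 36.1 CPM with vesicles, against 28.98, 24.1 and 24.03 CPM with PBS in the cultures (0.50). Its partners Rfxap and Rfxank did not pass in either table. The class II transactivator Ciita rose in the retina, with 1.301 ± 0.0903 CPM with vesicles and 0.230 ± 0.0373 CPM with PBS (log2 fold change 2.50 ± 0.44, adjusted p = 0.00477), and was below 0.3 CPM on average in both culture groups.

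**Figure D4:**
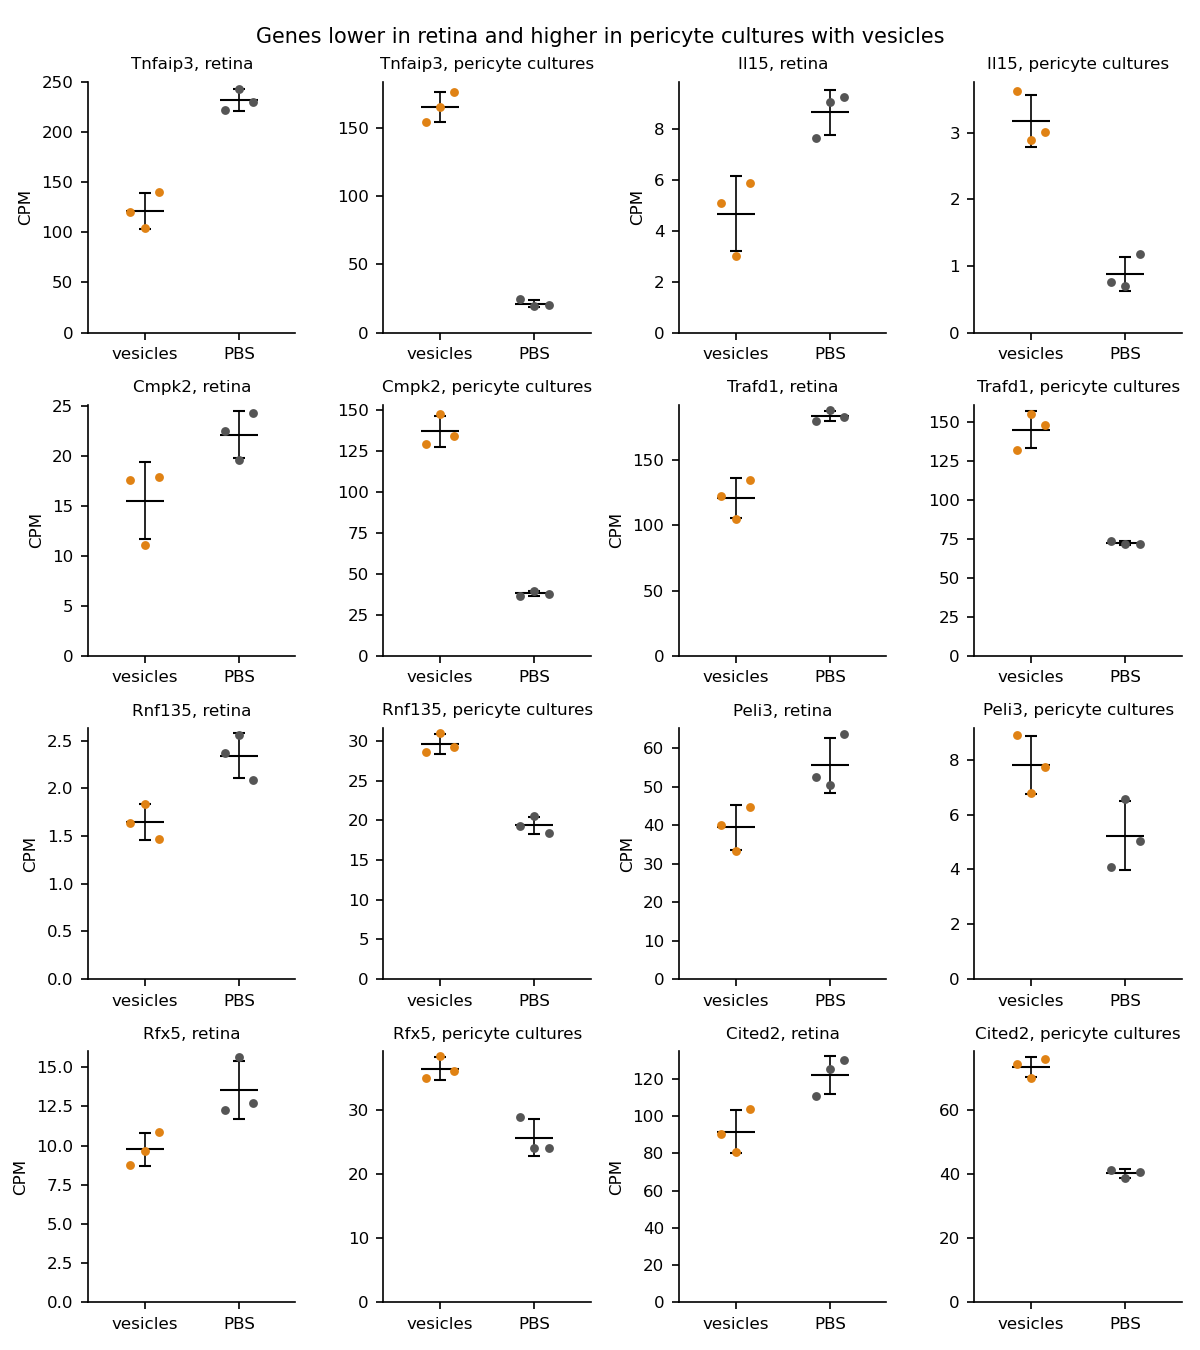
CPM by library in the retina and the pericyte cultures for 8 of the 25 genes, vesicles in orange and PBS in grey; each point is a library, bars are the mean ± SD of 3 libraries, and each panel has its own y axis from 0. The vesicle points lie below PBS in every retina panel and above PBS in every culture panel, as the rule required, with the widest gap for Tnfaip3 in the cultures.

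The 7 neuronal genes had retina ratios from -0.89 to -0.49 and culture ratios from 0.47 to 1.75. Rtn4rl2, a Nogo receptor relative on axons, had 6.18, 3.86 and 4.596 CPM with vesicles, against 8.86, 8.18 and 8.85 CPM with PBS in the retina (-0.82). The pericyte cultures had 26.8, 28.3 and 26.4 CPM with vesicles, against 18.8, 13.9 and 15.7 CPM with PBS (0.75). Sema7a, a membrane-anchored semaphorin, had 14.8, 11.1 and 16.7 CPM with vesicles, against 18.2, 30.6 and 29.9 CPM with PBS in the retina (-0.89) and 4.800, 3.25 and 3.25 CPM with vesicles, against 3.24, 2.21 and 1.37 CPM with PBS in the cultures (0.73). In the cultures 2 of the Sema7a vesicle values barely cleared PBS library 1. On the axon guidance list, which holds Sema7a and Sema4d from opposite sides, edgeR called 4 genes higher and 4 lower of 41 in the retina and 11 higher and 5 lower of 42 in the cultures.

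Psd, an exchange factor for the GTPase Arf6 in dendrites, had 62.5, 40.2 and 59.9 CPM with vesicles, against 85.4, 92.98 and 87.00 CPM with PBS in the retina (-0.71). Culture libraries held 20.7, 22.3 and 22.4 CPM with vesicles, against 13.1, 13.2 and 13.8 CPM with PBS (0.71). Slitrk6, a transmembrane protein of neurite growth, had 42.6, 31.5 and 52.8 CPM with vesicles, against 73.04, 67.4 and 64.9 CPM with PBS in the retina (-0.69) and 2.69, 2.22 and 1.97 CPM with vesicles, against 1.32, 1.73 and 1.504 CPM with PBS in the cultures (0.60). Both were low or moderate in the cultures, and their retina PBS values were close together. Rapgef5, an exchange factor for Rap GTPases, had 122, 101.1 and 142 CPM with vesicles, against 174, 171 and 167 CPM with PBS in the retina (-0.49) and 2.400, 1.92 and 2.16 CPM with vesicles, against 1.19, 0.273 and 0.465 CPM with PBS in the cultures (1.75). The culture levels rested on few counts, and without PBS library 1 that ratio was 2.55. Nckap5 and the inhibitory synapse gene Insyn2a had retina ratios of -0.87 and -0.79 and culture ratios of 0.50 and 0.47. On a list of synapse and excitability genes with no member, edgeR called 0 higher and 8 lower of 56 in the retina (median log2 fold change -0.30) and 4 higher and 8 lower of 46 in the cultures.

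Of the solute carriers, Slc25a22, the mitochondrial glutamate carrier, had 45.6, 34.1 and 42.3 CPM with vesicles, against 54.6, 73.2 and 78.2 CPM with PBS in the retina (-0.76). In the cultures it had 37.6, 46.3 and 44.2 CPM with vesicles, against 27.5, 25.4 and 27.2 CPM with PBS (0.68). Slc29a1, the nucleoside transporter ENT1 that takes up adenosine, had 4.98, 7.07 and 3.57 CPM with vesicles, against 8.601, 11.9 and 8.05 CPM with PBS in the retina (-0.87) and 186, 198 and 170.3 CPM with vesicles, against 143, 136 and 129 CPM with PBS in the cultures (0.44). It lay opposite to Entpd1 in both tables, but the rule set those signs, since Entpd1 was among the genes higher in the retina. Slc4a7, a sodium bicarbonate cotransporter, had ratios of -0.47 and 0.42, and its retina PBS library 3 lay just above vesicle library 3.

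Of the other 6, Bmp3, a BMP ligand that opposes its relatives, had 3.22, 2.55 and 4.66 CPM with vesicles, against 6.87, 6.56 and 6.09 CPM with PBS in the retina (-0.90) and 4.51, 4.599 and 4.11 CPM with vesicles, against 2.503, 2.79 and 2.87 CPM with PBS in the cultures (0.70). Cited2, a coactivator-binding protein that limits HIF-1, had 90.4, 80.7 and 104 CPM with vesicles, against 111, 125 and 130.2 CPM with PBS in the retina (-0.41). The cultures gave 74.3, 69.8 and 75.7 CPM with vesicles, against 41.3, 38.6 and 40.7 CPM with PBS (0.87). The culture groups of Cited2 were far apart, while its retina difference was close to the limit. Ext1, which builds heparan sulphate chains, had 42.7, 38.7 and 52.9 CPM with vesicles, against 71.1, 76.6 and 73.2 CPM with PBS in the retina (-0.72) and 99.3, 89.7 and 93.1 CPM with vesicles, against 70.3, 60.97 and 71.00 CPM with PBS in the cultures (0.48). Lbh had ratios of -0.55 and 0.42, Ago4, an Argonaute protein, -0.43 and 0.61, and Pik3ip1, an inhibitor of PI3 kinase, -0.41 and 0.40. The 2 unnamed models had retina ratios of -0.57 and -0.47.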

How the data were processed

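The authors deposited raw gene counts in 2 tables, one of 6 retina libraries and one of 6 pericyte-labelled libraries. Per the submitters' processing notes, FastQC 0.11.8, HISAT2 2.0.5, featureCounts 1.5.0-p3 and limma were used, with genome build and annotation not given in the sources used here. Strand is not stated either, so reads of overlapping genes cannot be told apart. Pericyte columns were matched by the labels' descriptions, and retina columns by inference from short names, which give no replicate pairing. No column was left out, and no pair of replicates agreed within sampling noise (lowest chi-squared per degree of freedom 11.2 in the retina and 6.12 in the cultures). For scale, 3 counts correspond to 0.178 to 0.193 CPM by retina library and 0.0790 to 0.0909 CPM by culture library, counting error only.

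CPM was computed from library totals, genes were joined by gene ID, and the limits stated in the results chose the members. Each whole table was also fitted in R 4.3.3 with edgeR 4.0.16 (filterByExpr with a minimum count of 10, TMM scaling, robust quasi-likelihood F test, 2-sided with 4 residual degrees of freedom). Calls needed p under 0.05 after Benjamini-Hochberg adjustment. Every adjusted p in the text comes from that fit, SEs are of its log2 fold changes, and means ± SD are CPM over 3 libraries. An exact permutation test of 3 against 3 cannot go below 0.1. On simulated counts the test recovered 67% of genes changed by 1 on the log2 scale in the retina and 77% in the cultures. DESeq2 1.42.0 was an alternative. The members and lists were chosen with earlier results of these data known, and 8 of the short lists were added after values were seen. Values by library are given for the 12 named genes per direction with the largest smaller ratio and for members on lists. Other members and relatives outside the set were added by role after their values were seen. The values of 1 member are not reported here. RefSeq promoters (build GRCm38.p6) were matched by symbol.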

Additional observations from a re-analysis of the deposited data

Results flagged for a closer look

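Every member meets the condition of moving one way in all 3 vesicle libraries of the retina and the opposite way in all 3 of the pericyte cultures. That holds for 57 genes higher in the retina and lower in the cultures, and for 25 genes lower in the retina and higher in the cultures. The genes were chosen for this pattern, so it is no result of its own, and the difference between the retina and culture ratios was not tested.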

How the results depend on the processing

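Counts of members depended on the limits. With a log2 ratio limit of 0.3 there were 104 genes higher in the retina and 49 lower in the retina (153 in all), and with 0.6 there were 17 and 8 (25 in all). A minimum mean of 5 CPM left 15 lower in the retina. Requiring an edgeR call in both tables in place of no overlap gave 31 and 14 (45 in all). Leaving out the lens-richest retina library of each group gave 55 genes higher in the retina, 47 of them shared with the 57. It gave 40 genes lower in the retina, 19 of them shared with the 25, and 1420 edgeR calls in the retina, against 2449. Library totals without the lens marker genes gave 67 genes higher in the retina and 22 lower, 57 and 22 of them shared. TMM-scaled library sizes gave 51 and 29 genes, 45 and 22 of them shared. Among the members lost under TMM were Notch2, Inhbb, Sema4d, Myo10, Cyth4, Cnnm4 and Cited2. Leaving out 1 library at a time gave 54 to 93 genes higher in the retina, 19 to 50 lower in the retina and 77 to 141 in all. Retina calls then ran from 1328 to 2909 and culture calls from 2412 to 3500. The counts passed 1.5 times those reported without retina vesicle library 3 (93 and 48) and without retina PBS library 1 (50 lower in the retina), where fewer values must lie apart. Retina calls fell by more than that without PBS library 2 (1328), vesicle library 1 (1401) or vesicle library 2 (1381). Without any 1 library, 34 of the 57 and 14 of the 25 stayed in their group each time, and under the 3 other scalings 45 and 22 did. With the replicate block, edgeR called 3287 genes in the cultures, but samples of the same number did not deviate together (correlations 0.032, 0.017 and -0.022). No block was fitted for the retina, whose columns carry no label numbers. The cause of these shifts was not tested where it is not named.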
